A study of Mus musculus with 8 samples.

Results

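Schwann cells are the glia of peripheral nerve: they ensheath every peripheral axon and wrap the larger ones in myelin, a stack of compacted membrane. Their development runs through the neural crest factors Sox10 and Foxd3, then through neuregulin signals from the axon that act on Erbb3, and myelination is switched on by Sox10 together with Egr2. Teeth are supplied by sensory axons of the trigeminal ganglion, most of which end in the dental pulp and around the root, with the neuron cell bodies lying outside the tooth.

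The genes described here are 27 Schwann cell and nerve genes, chosen by symbol with earlier results of these data known. They fall in 3 groups by role: 9 myelin sheath genes, 11 genes of the Schwann cell lineage and 7 axonal genes. All 27 were found among the 54532 genes of the read-count table, and 26 passed the filter on low counts; Foxd3, with 29 reads over all libraries, did not. RNA had been sequenced from first molars of C57BL/6 pups from which the pulp had been taken out, in 4 libraries of Wdr72-/- pups (KO 1, 3, 4 and 5) and 4 of wild-type pups (WT 2, 3, 4 and 5). WDR72 is a WD40-repeat protein needed for enamel maturation. The labels call the material enamel organ cells and ameloblasts, and give postnatal day 12 as the age while the dissection protocol gives day 13. The Wdr72-/- colony was bought from a mouse repository, and the labels state neither the deleted part of the gene nor whether the controls were littermates. Nothing in the labels says whether a library came from 1 pup or several. Every p-value therefore takes the library, not the pup, as its unit, and rests on variation between these libraries only.

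The libraries held 17084475 to 21887462 counted reads, and levels are given as CPM, counts scaled to a common library total after TMM adjustment. Wdr72 itself had 102, 37.8, 24.9 and 15.8 CPM in KO 1, 3, 4 and 5, against 173, 245, 327 and 227 CPM in WT 2, 3, 4 and 5. All 4 KO values lay below all 4 WT values (log2 fold change -2.43, SE 0.47, adjusted p = 0.0803 by edgeR), and an exact two-sided permutation test gave p = 0.0286, the smallest that 70 arrangements allow. KO 5 stood apart, with a mean correlation of 0.965 with the other libraries against 0.980 to 0.983 for the remaining 7. Ameloblast markers summed to 59716 to 81170 CPM in KO and 53399 to 97696 CPM in WT, and markers of odontoblasts, which make dentin, to 29600 to 57736 CPM in KO and 28063 to 56022 CPM in WT, so that genes of cells other than epithelium were abundant too.

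Upstream sequence from RefSeq was given for 16 of the 27 genes. It is shown for 4 genes whose KO libraries all lay above the WT libraries, a structural myelin gene (Prx), a myelin-associated enzyme (Cnp) and a calcium-binding protein and a receptor of Schwann cells (S100b and Ngfr), so that the letters read by Sox10 and Egr2, the factors that drive myelin genes, can be looked for. Each stretch ends at the annotated start of transcription or at the nearest annotated exon, is written 5′ to 3′ on the strand of the gene and comes from build GRCm38.p6; capitals mark the SOX letters ACAAAG or ACAATG on either strand. The stretches are chr7:27499074-27499323 on the plus strand for Prx, chr11:100574689-100574903 on the plus strand for Cnp, chr10:76253586-76253835 on the plus strand for S100b and chr11:95587736-95587948 on the minus strand for Ngfr.
Prx: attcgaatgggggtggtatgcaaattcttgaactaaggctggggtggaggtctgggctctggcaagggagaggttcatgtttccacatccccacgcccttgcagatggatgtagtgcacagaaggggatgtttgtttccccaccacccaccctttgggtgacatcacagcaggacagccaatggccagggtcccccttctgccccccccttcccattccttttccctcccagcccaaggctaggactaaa
Cnp: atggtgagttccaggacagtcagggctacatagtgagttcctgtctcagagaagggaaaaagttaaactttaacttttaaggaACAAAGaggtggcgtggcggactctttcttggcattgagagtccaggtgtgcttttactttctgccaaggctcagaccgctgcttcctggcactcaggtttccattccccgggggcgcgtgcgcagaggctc
S100b: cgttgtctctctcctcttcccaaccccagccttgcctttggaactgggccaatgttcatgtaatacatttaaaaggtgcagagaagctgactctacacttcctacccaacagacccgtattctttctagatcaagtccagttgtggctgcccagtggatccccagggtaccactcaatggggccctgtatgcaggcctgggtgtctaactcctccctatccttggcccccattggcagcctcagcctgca
Ngfr: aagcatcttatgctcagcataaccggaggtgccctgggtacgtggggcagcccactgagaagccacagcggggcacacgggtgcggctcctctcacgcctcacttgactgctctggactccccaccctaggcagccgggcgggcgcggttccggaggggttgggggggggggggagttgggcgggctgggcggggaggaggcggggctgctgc
Within 250 bases upstream, the SOX letters were found in 3 of the 16 genes (Cnp, Mag and Cadm4) and in 28.2% of 27025 genes with such a window. The EGR letters GCGNGGGCG, on either strand, were found in 1 of the 16 (Scn7a) and in 5.33% of those genes. A match of letters is a description of the sequence.

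Levels of most of the 26 tested genes were somewhat higher in KO than in WT molars, but none of the 26 passed the test adjusted over all genes. The fitted log2 fold change was above 0 for 23 of the 26, where 53.1% of all 16205 genes tested were above 0. By edgeR's quasi-likelihood test with Benjamini-Hochberg adjustment, 0 of the 26 passed an adjusted p of 0.05, where 5 genes in all did (0.0309%). At an unadjusted p of 0.05, 9 of the 26 were higher in KO (34.6%, against 8.7% of all genes) and 0 were lower (6.98% of all genes). DESeq2 called 3 of the 26 higher in KO (Ncam1, Uchl1 and Ngfr; 1.83% of all genes were called higher), and limma voom called 5 (the same 3, Fabp7 and Drp2; 4.34% of all genes). In 8 of the 26 genes the 4 KO libraries all lay above the 4 WT libraries (30.8%, against 5.5% of all genes): Ncam1, Uchl1, Ngfr, Gap43, S100b, Cnp, Prx and Sox10. The opposite order, all KO below all WT, was seen in 0 of them (5.44% of all genes). Because the genes were chosen with earlier results of these data known, these shares are a description only. In whole-tissue RNA, more cells of a type and more RNA per cell cannot be told apart.

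**Figure D1:**
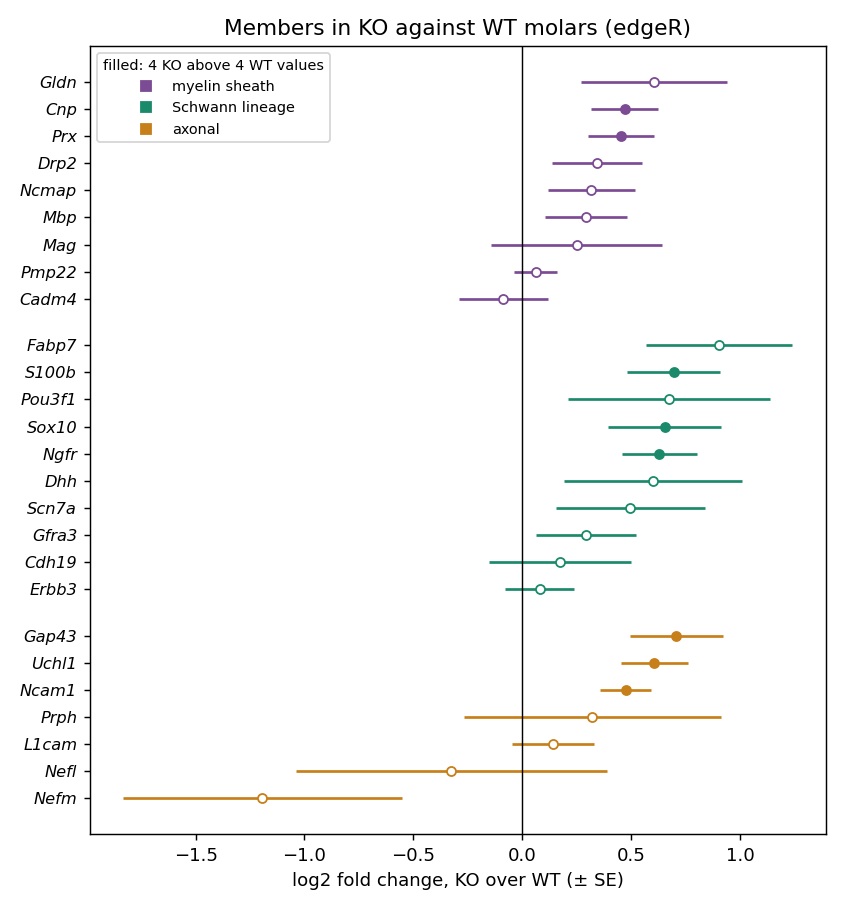
Fitted log2 fold change of the 26 tested genes, KO over WT, with its standard error, by role. Filled points are the 8 genes whose KO values all lie above the WT values; 23 points lie right of 0, and Cadm4, Nefl and Nefm lie left of it.

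The 9 myelin sheath genes had a median log2 fold change of 0.32, with a range of -0.09 to 0.60, where the median of all genes was 0.02. Of these, 8 were above 0 and 1 below. At an unadjusted p of 0.05, 2 were higher in KO, where 8.7% of all genes were, and 0 passed the adjusted one. Summed over the 9 genes, the level was 205 to 241 CPM in KO and 180 to 205 CPM in WT, with KO 1 just above WT 3. Pmp22 made up the largest share of that sum.

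Prx (ENSMUSG00000053198; chromosome 7, 27499324 to 27520214) encodes periaxin, which links the Schwann cell membrane to the surrounding basal lamina. It had 11.7, 11.0, 10.7 and 14.4 CPM in KO 1, 3, 4 and 5, against 7.20, 10.1, 8.59 and 8.93 CPM in WT 2, 3, 4 and 5. The lowest KO value, in KO 4, was above the highest WT value, in WT 3. The means were 11.9 ± 1.66 CPM in KO and 8.71 ± 1.20 CPM in WT (SD, n = 4 each), at a log2 fold change of 0.45 (SE 0.15); by edgeR the unadjusted p was 0.0115 and the adjusted one 0.21. An exon of a predicted gene on the other strand shares 300 bases with Prx but had 3.83% as many reads.

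Cnp (ENSMUSG00000006782; chromosome 11, 100574904 to 100591729), the enzyme CNPase of the uncompacted myelin cytoplasm, was measured at 24.4, 24.3, 22.3 and 35.8 CPM in the KO libraries, against 19.9, 20.1, 19.8 and 17.2 CPM in the WT libraries. KO 5 was the highest and WT 5 the lowest, and the other 3 KO libraries were close together above the other 3 WT libraries. The means were 26.7 ± 6.15 CPM in KO and 19.3 ± 1.40 CPM in WT (SD, n = 4 each; log2 fold change 0.47, SE 0.15, adjusted p = 0.204 by edgeR). Without KO 5 the log2 fold change was 0.30, and limma voom gave 0.26. Cnp shares 154 exon bases with Dnajc7 on the opposite strand, which had 440% as many reads; the log2 fold change of Dnajc7 was -0.01 (SE 0.09).

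Mbp (ENSMUSG00000041607), which encodes myelin basic protein, the protein that zips the inner faces of the membrane together, had 29.9, 45.5, 30.2 and 41.2 CPM in the KO libraries, against 26.4, 35.5, 36.0 and 21.8 CPM in the WT libraries. The groups overlapped: KO 1 and KO 4 lay below WT 3 and WT 4. Its means were 36.7 ± 7.90 CPM in KO and 29.9 ± 6.97 CPM in WT (SD, n = 4 each; log2 fold change 0.29, SE 0.19, adjusted p = 0.451 by edgeR).

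Pmp22, a membrane protein of compact myelin whose copy number must be right for normal nerve, and which fibroblasts and epithelia also express, was the most abundant member. Its level was 89.3, 84.8, 79.1 and 83.5 CPM in the KO libraries, against 75.1, 83.1, 76.3 and 87.9 CPM in the WT libraries, with overlapping groups and a log2 fold change of 0.06 (SE 0.10). Ncmap, a myelin membrane protein of peripheral nerve, had 13.9, 15.005, 19.9 and 18.2 CPM in the KO libraries, against 10.8, 11.4, 12.1 and 19.7 CPM in the WT libraries. WT 5 was as high as the upper KO libraries, and the adjusted p was 0.439 by edgeR.

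Drp2, on the X chromosome, binds periaxin at the outer Schwann cell membrane. It had 16.8, 19.0, 22.6 and 13.8 CPM in the KO libraries, against 12.5, 10.5, 13.9 and 20.2 CPM in the WT libraries. Its log2 fold change was 0.34 (SE 0.21), and the adjusted p was 0.424 by edgeR and 0.0229 by limma voom. Of the 3 tools, voom alone, which gives some libraries less weight, called it. WT 5 was above 3 of the 4 KO libraries. Xist, which is transcribed from the inactive X chromosome of female cells, was 177 to 356 CPM in KO and 251 to 839 CPM in WT. Its log2 fold change was -1.39 (SE 0.34), with an adjusted p of 0.116 by edgeR, 0.0435 by DESeq2 and 0.0184 by limma voom. The part of the sex of the pups in the values of the members, X-linked or not, was not tested.

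Mag, an adhesion protein of the innermost myelin wrap that faces the axon, had 0.492, 2.02, 1.89 and 1.51 CPM in the KO libraries, against 0.831, 1.67, 1.23 and 1.24 CPM in the WT libraries. KO 1 was the lowest library and KO 3 the highest, so both extremes were KO (log2 fold change 0.25, SE 0.39, adjusted p = 0.774 by edgeR). Gldn, gliomedin, with which Schwann cells gather sodium channels at the nodes, averaged 1.33 ± 0.266 CPM in KO and 0.872 ± 0.300 CPM in WT (SD, n = 4 each), and WT 4 was the lowest library (log2 fold change 0.60, SE 0.34, adjusted p = 0.388 by edgeR). Cadm4, an adhesion protein on the Schwann cell side of the axon contact that epithelia also express, was the myelin list's exception, at 22.8 ± 6.11 CPM in KO and 24.3 ± 5.77 CPM in WT (SD, n = 4 each). Its groups overlapped in full, with a log2 fold change of -0.09 (SE 0.20) whose sign turned when KO 1 or WT 3 was left out.

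**Figure D2:**
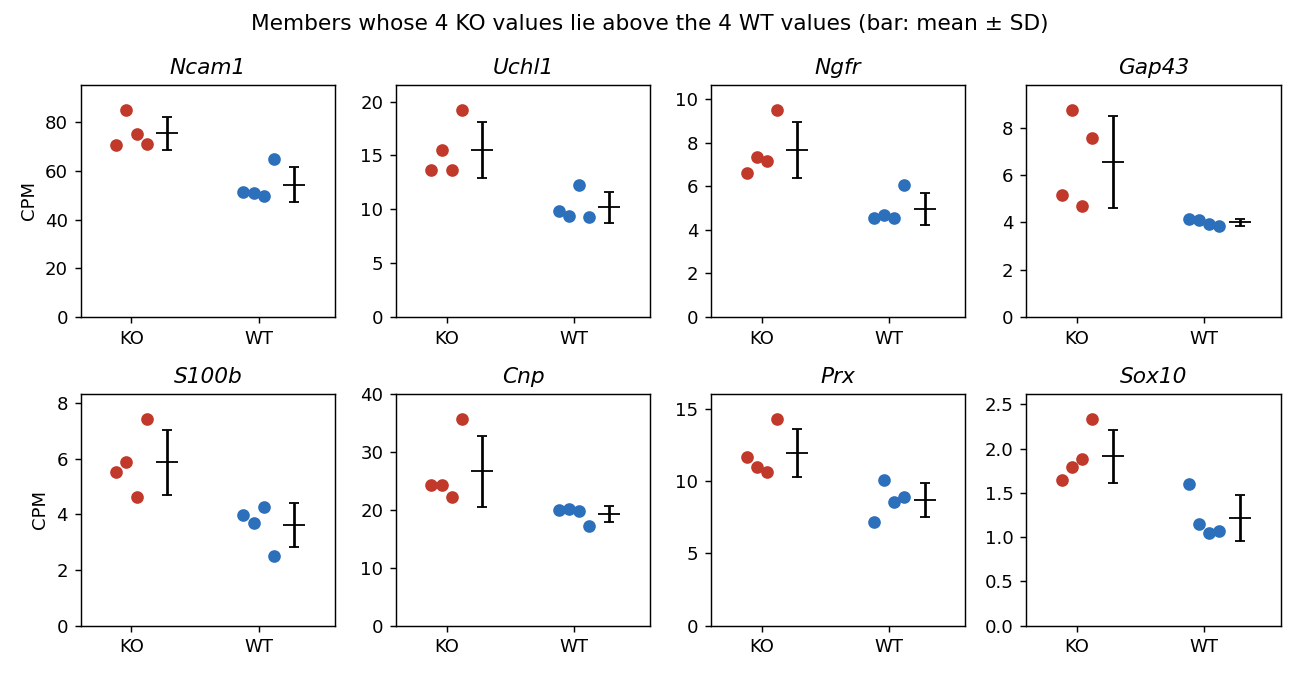
CPM of the 8 genes whose 4 KO libraries lie above the 4 WT libraries, one point per library, with mean and SD beside them. Ncam1 is the most abundant, with means of 75.6 CPM in KO and 54.3 CPM in WT, and Sox10 the least, with means of 1.91 CPM in KO and 1.22 CPM in WT.

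Of the 11 Schwann lineage genes, 10 could be tested, and all 10 of these had a log2 fold change above 0, with a median of 0.62 and a range of 0.08 to 0.90. At an unadjusted p of 0.05, 4 were higher in KO (Ngfr, S100b, Fabp7 and Sox10), where 8.7% of all genes were. None passed the adjusted one. Their summed level, which Erbb3 dominates, was 54.4 to 66.3 CPM in KO and 42.2 to 57.4 CPM in WT.

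Sox10 (ENSMUSG00000033006; chromosome 15, 79154908 to 79165240), the transcription factor that Schwann cells need at every stage, had 1.64, 1.79, 1.89 and 2.34 CPM in the KO libraries, against 1.61, 1.15, 1.04 and 1.07 CPM in the WT libraries. The KO libraries lay above the WT libraries, by a narrow margin between KO 1 and WT 2. The means were 1.91 ± 0.301 CPM in KO and 1.22 ± 0.262 CPM in WT (SD, n = 4 each), from 249 reads over all libraries (log2 fold change 0.65, SE 0.26, adjusted p = 0.267 by edgeR). Foxd3, a factor of the neural crest and early glia, had 0.328, 0.184, 0.0921 and 0.208 CPM in the KO libraries, against 0.277, 0.143, 0.0475 and 0.226 CPM in the WT libraries. Pou3f1, also called Oct6, which acts at the onset of myelination, had 0.602, 0.505, 0.368 and 0.988 CPM in the KO libraries, against 0.277, 0.525, 0.522 and 0.170 CPM in the WT libraries, with overlap of the groups (log2 fold change 0.67, SE 0.46, adjusted p = 0.48 by edgeR). Both are rare in these libraries, and 11 of the 27 genes had under 300 reads over all 8.

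Ngfr (ENSMUSG00000000120; chromosome 11, 95568818 to 95587735), the low-affinity neurotrophin receptor p75, which marks immature and non-myelinating Schwann cells and some mesenchyme, had 6.62, 7.34, 7.18 and 9.51 CPM in the KO libraries, against 4.54, 4.68, 4.56 and 6.05 CPM in the WT libraries. All KO libraries were above all WT libraries, and KO 5 and WT 5 were the highest of their groups. The means were 7.66 ± 1.27 CPM in KO and 4.96 ± 0.730 CPM in WT (SD, n = 4 each), with a log2 fold change of 0.63 (SE 0.17). The adjusted p was 0.149 by edgeR, 0.0386 by DESeq2 and 0.021 by limma voom.

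S100b (ENSMUSG00000033208; chromosome 10, 76253853 to 76261159), a calcium-binding protein used as a Schwann cell marker and also made by chondrocytes, had 5.52, 5.87, 4.60 and 7.44 CPM in the KO libraries, against 3.99, 3.68, 4.27 and 2.49 CPM in the WT libraries. The lowest KO library, KO 4, was just above the highest WT library, WT 4. The means were 5.86 ± 1.18 CPM in KO and 3.61 ± 0.785 CPM in WT (SD, n = 4 each; log2 fold change 0.70, SE 0.21, adjusted p = 0.182 by edgeR). The span of S100b overlaps that of Dip2a on the opposite strand, without shared exon bases. The log2 fold change of Dip2a was -0.08 (SE 0.14).

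Fabp7, a fatty acid binding protein of immature glia, had 2.52, 7.11, 5.52 and 4.11 CPM in the KO libraries, against 2.66, 1.67, 3.94 and 2.03 CPM in the WT libraries. KO 3 and KO 4 were the highest libraries, while KO 1 lay among the WT values. The means were 4.82 ± 1.96 CPM in KO and 2.58 ± 0.997 CPM in WT (SD, n = 4 each), and the log2 fold change was 0.90 (SE 0.34), the highest among the 26 genes. Its adjusted p was 0.247 by edgeR, 0.15 by DESeq2 and 0.0418 by limma voom.

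Erbb3, the receptor through which axonal neuregulin acts on Schwann cells, which epithelia also express, had 30.9, 37.1, 34.1 and 25.9 CPM in the KO libraries, against 24.1, 27.2, 38.4 and 31.4 CPM in the WT libraries. KO and WT overlapped in full (log2 fold change 0.08, SE 0.16, adjusted p = 0.827 by edgeR). Gfra3, the artemin receptor, had a log2 fold change of 0.29 (SE 0.23), at 2.35 ± 0.457 CPM in KO and 1.90 ± 0.235 CPM in WT (SD, n = 4 each). Dhh, the hedgehog ligand with which Schwann cells instruct the nerve sheath, had 0.656, 0.918, 0.691 and 0.364 CPM in the KO libraries, against 0.332, 0.382, 0.665 and 0.339 CPM in the WT libraries, with the groups overlapping (log2 fold change 0.60, SE 0.41, adjusted p = 0.474 by edgeR). It shares 546 exon bases with Rhebl1 on the same strand, which had 431% as many reads and a log2 fold change of 0.46 (SE 0.26), and reads in the shared part could not be assigned.

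Cdh19, a cadherin of Schwann cell precursors and nerve-associated glia, had 1.64, 1.65, 2.53 and 1.14 CPM in the KO libraries, against 1.27, 1.29, 1.23 and 2.43 CPM in the WT libraries. KO 4 and WT 5 were high and the other 6 libraries were between 1.14 and 1.65 CPM (log2 fold change 0.17, SE 0.33, adjusted p = 0.814 by edgeR). Scn7a, a sodium channel of glia and sensory neurons, had 1.42, 1.93, 1.98 and 0.832 CPM in the KO libraries, against 1.22, 0.859, 0.807 and 1.53 CPM in the WT libraries, and KO 5 was among the lowest libraries (log2 fold change 0.50, SE 0.34, adjusted p = 0.479 by edgeR).

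**Figure D3:**
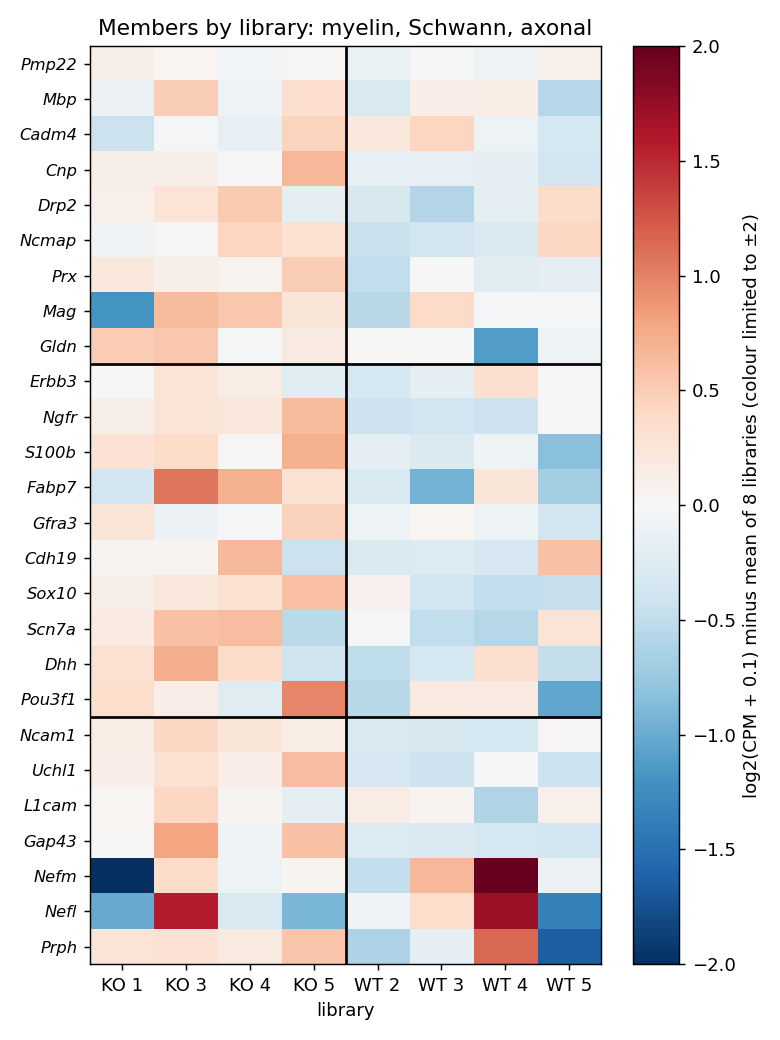
Log2(CPM + 0.1) of the 26 tested genes in each library minus the gene's mean over the 8 libraries, with red for higher and blue for lower values, KO left of WT. The medians that follow are from edgeR's log2 CPM with a prior count of 2, not from the values drawn. On that scale the median deviation was 0.30 in both KO 3 and KO 5. It was negative in all 4 WT libraries, from -0.31 in WT 2 to -0.10 in WT 4.

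The 7 axonal genes pointed in different directions. Of these, 5 had a log2 fold change above 0 and 2 below, with a median of 0.32 and a range of -1.19 to 0.71. At an unadjusted p of 0.05, 3 were higher in KO, where 8.7% of all genes were, and 0 passed the adjusted one. The median was 0.19 without WT 5, 0.51 without WT 4 and 0.078 after each library was corrected for GC content. Each is the value of a single gene: L1cam without WT 5, Nefl without WT 4, and Prph with all libraries before and after the correction. After it, Gap43, Ncam1 and Uchl1 had log2 fold changes of 0.70, 0.47 and 0.44. L1cam had 0.068, and Nefl and Nefm had -0.32 and -1.38. The summed level of the 7 genes, mostly Ncam1, was 101 to 128 CPM in KO and 78.3 to 90.4 CPM in WT. The 3 genes with separated groups code for a growth protein, an enzyme and an adhesion molecule, whereas the 3 genes of the axon's intermediate filaments overlapped between the groups.

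Ncam1 (ENSMUSG00000039542; chromosome 9, 49502136 to 49798925), a neural cell adhesion molecule of axons and non-myelinating Schwann cells that mesenchyme and muscle also express, had 70.6, 85.2, 75.4 and 71.1 CPM in the KO libraries, against 51.4, 51.0, 49.9 and 65.0 CPM in the WT libraries. The KO libraries lay above the WT libraries, of which WT 5 was the highest. The means were 75.6 ± 6.78 CPM in KO and 54.3 ± 7.16 CPM in WT (SD, n = 4 each), with a log2 fold change of 0.48 (SE 0.12). The adjusted p was 0.12 by edgeR, 0.02 by DESeq2 and 0.00662 by limma voom. Ncam1 and Gldn are on chromosome 9 like Wdr72, at distances of 24.3 Mb and 19.8 Mb from it.

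Uchl1 (ENSMUSG00000029223; chromosome 5, 66676091 to 66687234), the neuronal ubiquitin hydrolase PGP9.5 with which nerve fibres in teeth are commonly stained, had 13.7, 15.5, 13.6 and 19.2 CPM in the KO libraries, against 9.80, 9.35, 12.2 and 9.27 CPM in the WT libraries. Every KO library exceeded every WT library, and KO 5 was the highest. The means were 15.5 ± 2.63 CPM in KO and 10.2 ± 1.41 CPM in WT (SD, n = 4 each), with a log2 fold change of 0.61 (SE 0.15). The adjusted p was 0.127 by edgeR, 0.0234 by DESeq2 and 0.0178 by limma voom.

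Gap43 (ENSMUSG00000047261; chromosome 16, 42248442 to 42340651), a membrane protein of growing axon tips and of non-myelinating Schwann cells, had 5.14, 8.76, 4.70 and 7.59 CPM in the KO libraries, against 4.15, 4.10, 3.94 and 3.84 CPM in the WT libraries. The WT libraries lay close together, and the KO libraries were all higher and more spread, with KO 3 the highest. The means were 6.55 ± 1.95 CPM in KO and 4.01 ± 0.144 CPM in WT (SD, n = 4 each; log2 fold change 0.71, SE 0.21, adjusted p = 0.176 by edgeR).

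Nefl, the light neurofilament subunit, had 0.383, 2.80, 0.691 and 0.416 CPM in the KO libraries, against 0.831, 1.15, 3.13 and 0.283 CPM in the WT libraries. KO 3 and WT 4 were far above the other 6 libraries. Nefm, the medium subunit, had 0.109, 1.38, 0.967 and 1.09 CPM in the KO libraries, against 0.720, 1.72, 4.75 and 0.961 CPM in the WT libraries. WT 4 was again the highest, and KO 1 the lowest. Nefm averaged 0.886 ± 0.545 CPM in KO and 2.04 ± 1.86 CPM in WT (SD, n = 4 each; log2 fold change -1.19, SE 0.64, adjusted p = 0.377 by edgeR), and Nefl had a log2 fold change of -0.33 (SE 0.71). These genes are neighbours whose annotated exons share 1108 bases on opposite strands. Without WT 4 the log2 fold change of Nefl turned to 0.51 and that of Nefm was -0.36.

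Prph, peripherin, the filament of small sensory axons, had 0.492, 0.505, 0.460 and 0.624 CPM in the KO libraries, against 0.221, 0.334, 0.997 and 0.0565 CPM in the WT libraries. WT 4 was the highest library and WT 5 the lowest, and the KO libraries lay between them (log2 fold change 0.32, SE 0.59, adjusted p = 0.81 by edgeR). L1cam, an X-linked adhesion molecule of axons, averaged 10.9 ± 1.96 CPM in KO and 9.89 ± 2.15 CPM in WT (SD, n = 4 each), with WT 4 the lowest library and KO 3 the highest (log2 fold change 0.14, SE 0.19, adjusted p = 0.73 by edgeR). It shares 100 exon bases with Arhgap4, which had 40.8% as many reads.

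**Figure D4:**
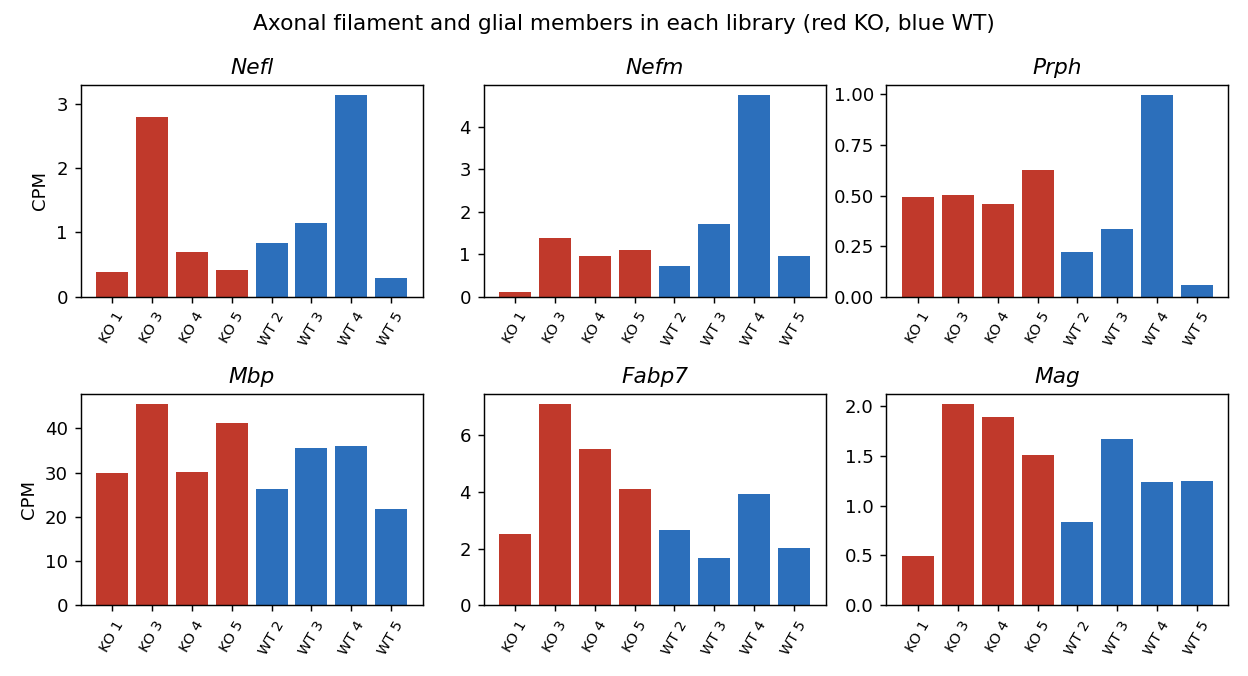
CPM in each library for the filament genes Nefl, Nefm and Prph and the glial genes Mbp, Fabp7 and Mag, KO in red left of WT in blue, axes from 0. WT 4 has the tallest bar for all 3 filament genes, at 3.13, 4.75 and 0.997 CPM, and KO 3 for the 3 glial genes shown, at 45.5, 7.11 and 2.02 CPM. These 3 are a selection: KO 3 was the highest library for 3 of the 9 myelin and 2 of the 10 tested Schwann lineage genes. KO 5 was the highest for 3 and 5 of them.

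Per length, the members span a wide range. On the RPKM scale, CPM divided by the deposited gene length in kilobases, Pmp22 was the most abundant, at 35.8 ± 1.78 RPKM in KO and 34.2 ± 2.57 RPKM in WT (SD, n = 4 each). Next came Cadm4 with 10.6 ± 2.83 RPKM in KO and 11.2 ± 2.67 RPKM in WT, Uchl1 with 9.50 ± 1.61 RPKM in KO and 6.23 ± 0.861 RPKM in WT and Ncam1 with 8.72 ± 0.782 RPKM in KO and 6.27 ± 0.827 RPKM in WT. In both groups Uchl1 and Ncam1 lay closer to each other than the SD of Uchl1. Mbp stood at 4.37 ± 0.940 RPKM in KO and 3.56 ± 0.830 RPKM in WT, S100b at 3.95 ± 0.795 RPKM in KO and 2.43 ± 0.529 RPKM in WT and Sox10 at 0.627 ± 0.0987 RPKM in KO and 0.399 ± 0.0860 RPKM in WT. Foxd3 was the lowest.

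Across libraries the 26 genes did not share 1 order. KO 5 was the highest library for 9 genes, KO 3 for 8, KO 4 for 4, WT 4 for 4 and KO 1 for 1. WT 5 was the lowest for 9 genes, WT 2 for 6, WT 4 for 5, KO 1 for 3, WT 3 for 2 and KO 5 for 1. WT 4 was thus often either the highest or the lowest library. When each library was left out in turn, 7 to 10 of the 26 were higher in KO at an unadjusted p of 0.05 by edgeR. The share of all genes in these runs was 5.76% to 10.1%. Without KO 5, the library that stands apart, 10 of the 26 were higher against 7.97% of all genes. Without WT 2, 1 of the 26 was lower in KO at that p, where 6.98% of all genes were lower with all libraries.

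Further genes of the same pathways were taken as whole lists, from each of which the genes of smallest p are named; the counts cover every gene of a list that could be tested. Of 14 other myelin genes, 10 could be tested, and all 10 had a log2 fold change above 0, with a median of 0.15. At an unadjusted p of 0.05, 1 was higher in KO, where 8.7% of all genes were, and 0 passed the adjusted one. Nfasc, an adhesion protein of the nodes, Adgrg6, a receptor that Schwann cells need to begin myelination, and Dag1, the dystroglycan gene, had log2 fold changes of 0.41, 0.20 and 0.11 (SE 0.33, 0.18 and 0.10), with overlapping groups. Pmp2, Pllp, Gjb1 and Fa2h were too low to test.

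Of 14 other regulators and markers of the Schwann lineage, 12 could be tested, 7 above 0 and 5 below, with a median log2 fold change of 0.11. At an unadjusted p of 0.05, 1 was higher and 1 lower in KO (8.7% and 6.98% of all genes were), and 0 passed the adjusted one. Egr2, also called Krox20, the factor that turns on the myelin genes, had 1.09, 1.28, 1.15 and 1.25 CPM in the KO libraries, against 0.498, 0.430, 0.475 and 0.791 CPM in the WT libraries. All 4 KO libraries were above all 4 WT libraries, from 139 reads in total (log2 fold change 1.13, SE 0.31). The adjusted p of Egr2 was 0.152 by edgeR, 0.0758 by DESeq2 and 0.0212 by limma voom. Of the cofactors that bind Egr proteins, Nab1 had a log2 fold change of -0.34 (SE 0.13, adjusted p = 0.255) and Nab2 one of 0.35 (SE 0.17, adjusted p = 0.332) by edgeR. Gfap, a filament of astrocytes and non-myelinating Schwann cells, had 2.57, 11.4, 6.03 and 3.54 CPM in the KO libraries, against 4.65, 2.91, 3.32 and 1.86 CPM in the WT libraries. KO 3 was again the highest library, and the groups overlapped.

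Of 23 other neuronal and axonal genes, 17 could be tested, 11 above 0 and 6 below, with a median log2 fold change of 0.12. At an unadjusted p of 0.05, 3 were higher in KO and 0 lower (8.7% and 6.98% of all genes were), and 0 passed the adjusted one. Tubb3, the neuronal beta-tubulin, had 48.6, 56.2, 45.2 and 61.9 CPM in the KO libraries, against 32.9, 36.7, 38.1 and 30.0 CPM in the WT libraries. The groups did not overlap (log2 fold change 0.62, SE 0.13). The adjusted p of Tubb3 was 0.0852 by edgeR, 0.00272 by DESeq2 and 0.0134 by limma voom. Stmn2 and Dpysl3, which act on microtubules in growing axons, differed by 0.82 (SE 0.23) and 0.45 (SE 0.13) on the log2 scale. Their adjusted p-values were 0.159 and 0.169 by edgeR, 0.0388 and 0.0653 by DESeq2, and 0.0136 and 0.0104 by limma voom. Tac1, the precursor of the sensory neuropeptide substance P, differed by 0.48 (SE 0.27). The sodium channels Scn10a and Scn11a of pain-sensing neurons had 10 and 2 reads over all libraries.

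Of 28 ligands and receptor partners, 22 could be tested, 14 above 0 and 8 below, with a median log2 fold change of 0.03. At an unadjusted p of 0.05, 5 were higher and 1 lower in KO (8.7% and 6.98% of all genes were), and 0 passed the adjusted one. Gfra4, the persephin receptor, had 3.34, 3.81, 4.14 and 6.19 CPM in the KO libraries, against 2.99, 1.67, 2.80 and 2.26 CPM in the WT libraries. Cadm3, an axonal partner of Cadm4, had 7.99, 8.40, 7.23 and 8.16 CPM in the KO libraries, against 5.98, 5.87, 5.70 and 5.31 CPM in the WT libraries. For both, the KO libraries were above the WT libraries (log2 fold changes 0.85 and 0.47, SE 0.25 and 0.14). Their adjusted p-values were 0.176 and 0.168 by edgeR, 0.0621 and 0.0607 by DESeq2, and 0.04 and 0.0616 by limma voom. Cadm3 shares 361 exon bases with Ackr1, which had 20.3% as many reads and a log2 fold change of 0.95 (SE 0.34). Ntrk2, the receptor of brain-derived neurotrophic factor, was on the lower side in KO, with a log2 fold change of -0.45 (SE 0.15). The adjusted p of Ntrk2 was 0.212 by edgeR, 0.0989 by DESeq2 and 0.0209 by limma voom. Nrtn, the ligand neurturin, had 5.41, 4.59, 6.08 and 14.2 CPM in the KO libraries, against 4.21, 4.63, 3.85 and 3.84 CPM in the WT libraries, so that KO 5 set most of its difference. The neuregulins Nrg1, Nrg2 and Nrg3, ligands of the Erbb receptors, were too low to test.

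Of the marker lists of other cells, the summed levels of chondrocyte and macrophage markers were higher in all KO than in all WT libraries, and those of the other lists overlapped between the groups. The 10 mesenchyme markers, 9 of them above 0 and their median log2 fold change 0.53, summed to 4951 to 7234 CPM in KO and 3190 to 5106 CPM in WT. Of these 10, 7 were higher in KO at an unadjusted p of 0.05, 6 had KO libraries all above the WT libraries, and 0 passed the adjusted p by edgeR, while DESeq2 called 6 and limma voom 8. These shares are larger than those of the 26 nerve genes, and the difference was not tested. Of all genes, 8.7% were higher in KO at an unadjusted p of 0.05, and 5.5% had KO libraries all above the WT libraries. DESeq2 called 1.83% of all genes higher and limma voom 4.34%. Chondrocyte markers, 7 of 10 tested and 6 of these above 0, summed to 137 to 234 CPM in KO and 97.7 to 113 CPM in WT, although Matn1 had 4 reads in all; 5 were higher in KO at an unadjusted p of 0.05. The 7 macrophage markers, 6 of them above 0 and 4 higher in KO at an unadjusted p of 0.05, summed to 141 to 192 CPM in KO and 116 to 129 CPM in WT. Skeletal muscle markers, 5 of 8 tested, all 5 above 0 and 0 past an unadjusted p of 0.05 by edgeR or called by DESeq2 or limma voom, summed to 24.1 to 46.7 CPM in KO and 17.1 to 36.9 CPM in WT. The 10 oral keratinocyte markers were all below 0, with a median of -1.20 and 2 past the adjusted p by edgeR, and summed to 714 to 856 CPM in KO and 821 to 1416 CPM in WT. The part of these cells in the nerve gene values was not tested.

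Markers of oligodendrocytes, the myelinating cells of the brain, summed to 1.75 to 8.81 CPM in KO and 1.07 to 5.51 CPM in WT, and 3 of 6 could be tested; Opalin had 4 reads and Mog 21 in all. Of 6 markers of neuron cell bodies, 3 could be tested, and the sum was 1.59 to 4.63 CPM in KO and 2.34 to 3.23 CPM in WT. Markers of melanocytes, a Sox10-dependent lineage, summed to 13.9 to 20.6 CPM in KO and 19.0 to 21.9 CPM in WT, with 3 of 6 tested; Tyr had 1 read, Mlana 7 and Tyrp1 9. The 6 endothelial markers, 3 above 0 and 3 below, summed to 308 to 368 CPM in KO and 297 to 320 CPM in WT. At an unadjusted p of 0.05, 2 of them were higher in KO and 0 lower, where 8.7% and 6.98% of all genes were. DESeq2 and limma voom called 0 of the 6. At that unadjusted p, 1 oligodendrocyte marker was higher and 1 melanocyte marker lower in KO. Of the perineurial and endoneurial markers, 6 of 7 were tested and 4 were above 0. At an unadjusted p of 0.05, 3 were higher and 1 lower in KO, and 0 passed the adjusted one by edgeR. DESeq2 called 2 higher and 0 lower, and limma voom called 2 higher and 1 lower. The 7 markers summed to 2042 to 2365 CPM in KO and 1339 to 2795 CPM in WT. Of these, Itgb4 and Slc2a1 had 33350 and 17072 reads over all libraries, against 249 for Sox10. How much of this sum comes from nerve sheath was not tested.

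**Figure D5:**
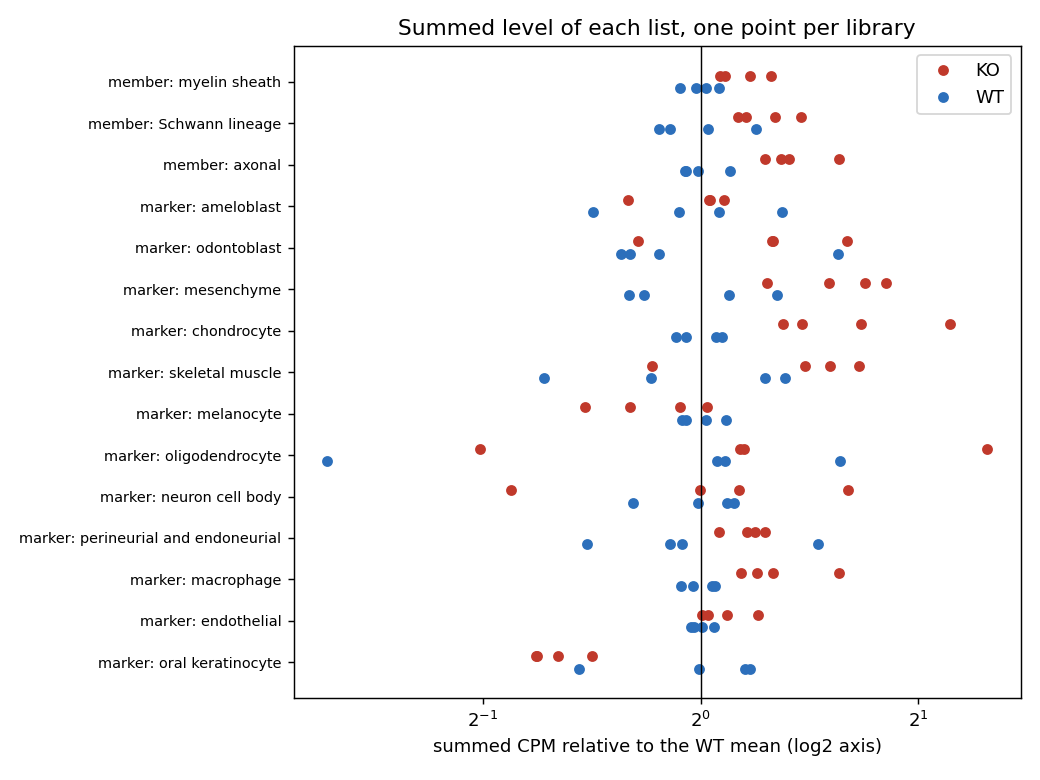
Summed CPM of the 3 groups of nerve genes and of 12 marker lists in each library, divided by the WT mean of the list, on a log2 axis, KO above WT in each row. The axonal, chondrocyte and macrophage sums of KO lie right of all WT sums, the myelin sums of KO 1 and WT 3 nearly touch, and the oligodendrocyte sums run from 1.07 to 8.81 CPM over the 8 libraries.

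Base composition also moved with genotype. The rank correlation between a gene's transcript GC content and its deviation from the mean over libraries was -0.051 to 0.37 in KO and -0.42 to -0.16 in WT. The 26 genes had a median GC content of 53.4%, against 49.7% for all genes tested. After a correction of each library for GC content, chosen after seeing the data, the median log2 fold changes were 0.26 for the myelin, 0.42 for the Schwann lineage and 0.078 for the axonal genes, and 0 of the 26 passed the adjusted p. That axonal median was the value of Prph, with Gap43, Ncam1 and Uchl1 above it and L1cam, Nefl and Nefm below it.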

How the data were processed

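The authors deposited 1 table of read counts per Ensembl gene, whole numbers that were not normalised, with gene lengths and coordinates. RNA was captured by polyA before library making, per the labels' protocols. CASAVA and the build mm39 are named in the submitters' processing notes. How reads were aligned and counted, and whether strand was used, is not given in the sources used here; reads shared by overlapping genes therefore could not be separated. The coordinates are those of GRCm38: of 54495 gene IDs shared with GENCODE M21, 98.8% had the same start.

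A filter on low counts, filterByExpr with a minimum count of 10 and a minimum total of 15, kept 16205 of 54532 genes. KO was set against WT with edgeR 4.0.16 in R 4.3.3 (TMM, robust quasi-likelihood test, two-sided, Benjamini-Hochberg over all genes tested, threshold 0.05), without covariates; SE is the size of the log2 fold change over the square root of F. The method was tested on simulated data. DESeq2 1.42.0, limma 3.58.1 (voom with quality weights), other scalings and filters, a replicate block and left-out libraries were alternatives. With 4 libraries a group, precision is set by their spread (biological coefficient of variation 17.8%); rare genes are also limited by counting error.

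The members and lists were chosen with earlier results of these data known. All members were named, and from each further pathway list the 4 genes of smallest p. Some genes that this rule or the marker lists name are not reported here.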

Additional observations from a re-analysis of the deposited data

Results flagged for a closer look

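Of 88 groups of 4 libraries screened, made up of the 27 members, the genes named by the rule from the pathway lists and Wdr72, each in KO and in WT, 12 held a library far from the other 3 by Dixon's test; chance alone flags about 5% of groups. In KO, Cnp was 35.8 CPM in KO 5, against 22.3 to 24.4 CPM in the other 3, and Nrtn was 14.2 CPM in KO 5, against 4.59 to 6.08 CPM. In KO 3, Nefl was 2.80 CPM, against 0.383 to 0.691 CPM in the other KO libraries, and Nfasc was 5.60 CPM, against 2.24 to 2.72 CPM. WT 5 stood apart in 5 genes: it was high for Ncmap (19.7 CPM, against 10.8 to 12.1 CPM in the other WT libraries), Ngfr (6.05 CPM, against 4.54 to 4.68 CPM), Cdh19 (2.43 CPM, against 1.23 to 1.29 CPM) and Ncam1 (65.0 CPM, against 49.9 to 51.4 CPM), and low for Cnp (17.2 CPM, against 19.8 to 20.1 CPM). WT 4 stood apart in 3 genes: it was low for Gldn (0.427 CPM, against 0.961 to 1.05 CPM) and L1cam (6.69 CPM, against 10.6 to 11.3 CPM), and high for Dhh (0.665 CPM, against 0.332 to 0.382 CPM).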

How the results depend on the processing

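The count of changed genes depended on the method. Over all genes, 5 passed with the settings used, 2 with library totals alone, 241 with no filter on low counts, 464 with DESeq2, 1073 with limma voom and 11 without KO 1 and KO 5 together. Of the members, 0 passed with the settings used, 3 with DESeq2 and 5 with limma voom, and 0 in every other alternative run. Leaving out 1 library in turn gave 0 to 55 changed genes: 0 without KO 3, KO 4, WT 2 or WT 3, 16 without WT 4 and 55 without KO 5; the members stayed at 0. The leave-one-out medians of the log2 fold change were 0.23 to 0.42 for the myelin, 0.52 to 0.65 for the Schwann lineage and 0.19 to 0.51 for the axonal genes, the last with its ends without WT 5 and without WT 4. The correction for GC content took the Schwann lineage median to 0.42 and the axonal one, which was the value of Prph, to 0.078. The cause of the other shifts was not tested.

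Of the single-gene values over all alternatives, 470 kept their direction and side of the threshold, 8 passed it with DESeq2 or limma voom and 12 turned in direction. Left-out libraries gave ranges of -0.28 to 0.056 for Cadm4, -0.024 to 0.21 for Erbb3, -1.44 to 0.51 for Nefl, -0.015 to 0.23 for L1cam, -0.014 to 1.28 for Prph and -0.064 to 0.46 for Cdh19. Nefl was 0.34 without KO 1 and KO 5 together. With the replicate number as a block, on libraries 3, 4 and 5 of each group, 1 gene and 0 members passed, Cadm4 was 0.085 and Erbb3 -0.00028; the same 6 libraries without the block, a choice made after seeing the data, gave 1 gene and Cadm4 0.074. Whether the numbers pair the libraries could not be told. Deviations from the group mean correlated at -0.14, -0.09 and -0.12 in same-numbered libraries, and at -0.24 to 0.27 in the other pairs. Only 3 same-numbered values, within that range, cannot decide it. The members higher in KO were 23 of 26 under each of 4 scalings. Depth limits Foxd3, Prph, Pou3f1 and Dhh, with 29, 75, 79 and 88 reads in all.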

Other observations

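Library KO 3 held the highest levels of several glial and neuronal genes that were chosen here after their values were seen. Olig1, a transcription factor of oligodendrocytes, had 0.492, 4.04, 1.52 and 0.676 CPM in the KO libraries, against 0.886, 0.620, 0.807 and 0.113 CPM in the WT libraries. Olig2, its close relative, had 0.164, 1.15, 0.322 and 0.156 CPM in the KO libraries, against 0.388, 0, 0.237 and 0.0565 CPM in the WT libraries, from 51 reads in total. Map2, a microtubule protein of dendrites, had 5.85, 21.2, 12.4 and 7.02 CPM in the KO libraries, against 9.30, 7.54, 8.45 and 8.42 CPM in the WT libraries, and Elavl3, an RNA-binding protein of neurons, had 0.273, 2.06, 0.875 and 1.09 CPM in the KO libraries, against 1.16, 0.143, 1.33 and 0.339 CPM in the WT libraries. Gfap and Nfasc were also highest in KO 3.

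Library KO 5 held the highest level of the neurotrophin Ntf5, at 19.6, 20.6, 19.5 and 45.4 CPM in the KO libraries, against 19.99, 20.6, 19.8 and 15.5 CPM in the WT libraries. The other 7 libraries lay between 15.5 and 20.6 CPM. The same library had the highest level of Nrtn, a secreted neurotrophic factor that the screen above flagged. Ntf5 was not among the genes screened and was chosen here after its values were seen.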
